A study of Homo sapiens with 3 samples.

Results

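The regions described here are the open chromatin peaks that lie deep inside very long genes in hCMEC/D3. This immortalized human cell line comes from the endothelium of small brain vessels, whose inner wall such cells form. A peak was taken as a member when it lay wholly inside a protein-coding gene of at least 500 kb on chromosomes 1 to 22 or X and more than 1 kb from the end of any annotated gene. This gave 4125 peaks of the 106415 in the list, inside 314 genes. The peaks came from ATAC-seq, in which the Tn5 transposase cuts and tags accessible DNA, of 1 library (replicate 2) of cells grown to confluence on rat tail collagen type I in endothelial cell medium. With 1 ATAC library, 1 cell line and no treatment named in the labels, the values describe this library, with no replicate check and no p-value. RNA-seq replicates 1 and 2 of the same line were not used, because their tables hold transcript identifiers that are not linked to gene names in the sources used here.

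Genes of this length are made up almost wholly of introns. Many encode adhesion molecules, ion channels and scaffold proteins of neurons, while others encode kinases, cytoskeletal proteins and transcription factors used in many adherent cells. Introns can hold enhancers, which are short accessible stretches bound by transcription factors, and alternative start sites, from which shorter forms of the same gene are made. All 12 endothelial markers checked, among them CDH5, PECAM1, TIE1 and CLDN5, had a peak within 1 kb of a gene end. The same held for 4 of 6 neuronal markers, 2 of 5 glial and 3 of 5 mural markers, and for 73.1% of all 19970 protein-coding genes. The neuronal markers SLC17A7 and STMN2, the glial markers AQP4, MOG and OLIG2 and the mural markers ABCC9 and KCNJ8 had none.

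Some member peaks covered annotated starts of the long genes themselves, while other internal starts had no peak. Of the internal starts, 6 are shown because they contrast open and closed ones. The first 3 are the starts under the internal peaks of highest pileup (the mean number of extended tags over a peak), 1 per gene, and the last 3 belong to the longest genes with an internal start in the table but no member peak, where the start of lowest coordinate was taken. Each window runs from 250 bases before to 50 bases after a start in RefSeq (GRCh38.p14), 5′ to 3′ on the strand of the gene, and capitals mark CG dinucleotides.
SCHIP1: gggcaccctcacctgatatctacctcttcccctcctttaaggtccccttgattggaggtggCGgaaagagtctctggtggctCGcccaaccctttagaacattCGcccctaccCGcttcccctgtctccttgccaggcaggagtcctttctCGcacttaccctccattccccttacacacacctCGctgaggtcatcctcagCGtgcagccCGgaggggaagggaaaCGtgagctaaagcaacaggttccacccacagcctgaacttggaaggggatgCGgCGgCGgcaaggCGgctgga
NAV2: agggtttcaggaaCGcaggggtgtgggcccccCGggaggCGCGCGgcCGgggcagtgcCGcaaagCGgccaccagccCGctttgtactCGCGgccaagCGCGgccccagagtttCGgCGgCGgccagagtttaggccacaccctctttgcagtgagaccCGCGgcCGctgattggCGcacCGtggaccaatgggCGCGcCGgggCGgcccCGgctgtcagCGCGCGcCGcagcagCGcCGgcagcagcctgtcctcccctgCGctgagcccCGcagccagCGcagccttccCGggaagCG
ADK: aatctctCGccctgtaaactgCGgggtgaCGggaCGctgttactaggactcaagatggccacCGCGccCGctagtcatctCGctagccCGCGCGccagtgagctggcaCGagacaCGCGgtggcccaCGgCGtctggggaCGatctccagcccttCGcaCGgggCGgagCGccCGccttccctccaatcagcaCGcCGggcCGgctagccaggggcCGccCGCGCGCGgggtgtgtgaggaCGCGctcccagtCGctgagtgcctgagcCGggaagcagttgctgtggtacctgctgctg
RBFOX1: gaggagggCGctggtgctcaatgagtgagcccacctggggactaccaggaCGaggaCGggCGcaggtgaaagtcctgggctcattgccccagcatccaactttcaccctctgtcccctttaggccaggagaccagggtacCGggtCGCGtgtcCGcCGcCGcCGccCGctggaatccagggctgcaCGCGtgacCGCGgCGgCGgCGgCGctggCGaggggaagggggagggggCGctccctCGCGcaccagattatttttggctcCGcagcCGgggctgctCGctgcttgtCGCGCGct
PTPRD: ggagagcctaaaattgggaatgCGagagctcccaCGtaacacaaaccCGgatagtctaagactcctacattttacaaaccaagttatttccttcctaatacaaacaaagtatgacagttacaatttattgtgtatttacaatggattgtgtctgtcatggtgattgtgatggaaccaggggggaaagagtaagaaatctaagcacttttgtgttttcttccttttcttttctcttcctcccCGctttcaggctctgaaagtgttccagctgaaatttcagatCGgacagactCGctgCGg
DMD: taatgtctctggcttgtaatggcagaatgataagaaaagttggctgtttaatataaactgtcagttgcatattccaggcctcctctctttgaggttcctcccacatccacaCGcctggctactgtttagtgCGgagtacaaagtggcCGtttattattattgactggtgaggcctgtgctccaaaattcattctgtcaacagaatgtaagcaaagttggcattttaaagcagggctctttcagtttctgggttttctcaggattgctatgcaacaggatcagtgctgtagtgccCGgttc
The SCHIP1 window, chr3:159762880-159763179 on the plus strand, had 13 CG dinucleotides and lay under a peak of 1687 bp with a pileup of 86.7 tags. The NAV2 window, chr11:19712587-19712886 on the plus strand, had 37 and lay under a peak of 1044 bp with a pileup of 80.1 tags. The ADK window, chr10:74176513-74176812 on the plus strand, had 34 and lay under a peak of 1059 bp with a pileup of 79.9 tags. No peak was called over the other 3 windows, which lie at chr16:6018774-6019073 on the plus strand for RBFOX1, chr9:8733897-8734196 on the minus strand for PTPRD and chrX:31508247-31508546 on the minus strand for DMD. The RBFOX1 window, with 30 CG dinucleotides, was within the range of the open ones, while those of PTPRD and DMD had 7 and 4.

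Long genes held fewer peaks per length than shorter genes. The 4125 peaks spread over 261.3 Mb, which is 1.58 peaks per 100 kb (exact Poisson 95% interval 1.53 to 1.63). By the same rule, genes of 100 to 200 kb held 4.46 per 100 kb (4.38 to 4.54) and genes of 200 to 500 kb held 3.59 (3.52 to 3.65). Within the long genes the density fell further with length, from 2.43 per 100 kb (2.34 to 2.53) at 500 to 750 kb to 1.58 (1.48 to 1.68) at 750 kb to 1 Mb and 0.709 (0.657 to 0.764) at 1 Mb and more. None of these 3 intervals overlapped. Intervals cover counting error only, and neighbouring peaks of a gene may not be independent. Just outside the length limit, ITPR2 held 30 peaks over 497.8 kb, CPQ 3 and DIAPH3 9. Just inside it, AFF2 held 0 over 500.0 kb, PPP2R2B 4 and PPFIA2 2.

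**Figure D1:**
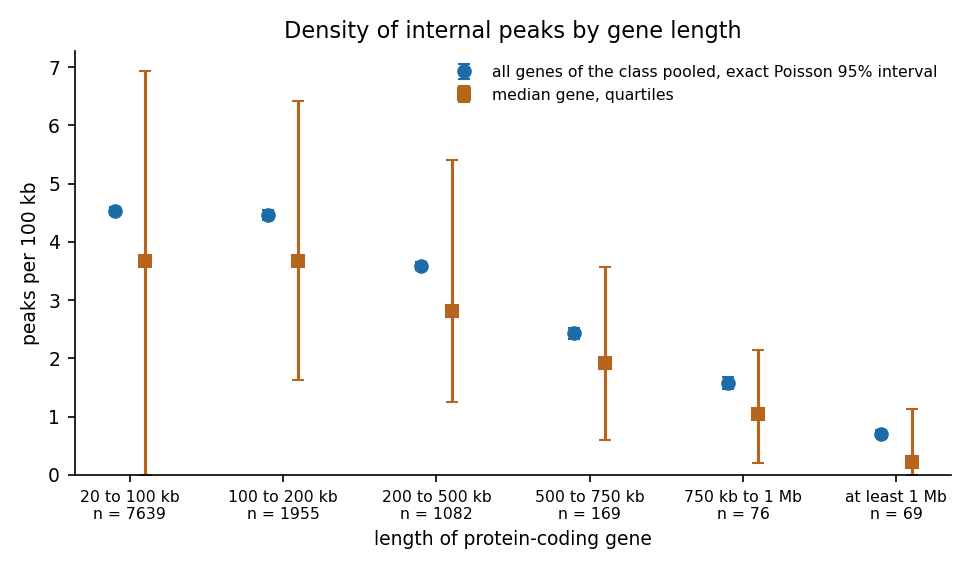
Peaks per 100 kb (vertical axis) inside protein-coding genes of 6 length classes (horizontal axis), over 1 kb from any gene end, in 1 ATAC library. Circles pool all genes of a class with the exact Poisson 95% interval, squares are the median gene with quartiles, and both are lowest for genes of at least 1 Mb, at 0.709 and 0.230.

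The peaks themselves were shorter and lower than those at gene ends and close to those between genes. Members had a median length of 390 bp (quartiles 277 and 590 bp), compared with 391 bp between genes, 414 bp inside genes of 100 to 200 kb and 786 bp at gene ends. Their median pileup was 17.7 tags (quartiles 12.9 and 26.8), compared with 18.9 between genes, 20.1 inside genes of 100 to 200 kb and 34.3 at gene ends. Only 5.41% of members reached a pileup of 50 tags, against 26.8% of peaks at gene ends. The fold over local background, as the authors' peak caller gave it, differed little, with a median of 4.54 for members and 4.64 at gene ends. These folds rest on unlike local backgrounds, with medians of 2.38 tags for members and 6.16 at gene ends. The caller's local background was within 0.02 tags of its floor of 2.37 tags for 50.9% of members, 38.5% of peaks inside genes of 100 to 200 kb and 16.6% of peaks at gene ends.

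The highest pileup, 106.7 tags, was reached by a peak of 738 bp at chr3:159854484-159855221, inside SCHIP1 and the readthrough gene IQCJ-SCHIP1 that contains it. It was followed by 104.8 tags at chr13:33542192-33543131 in STARD13, which encodes a GTPase-activating protein, and 92.3 tags at chr15:71294539-71296269 in THSD4. A peak at chr2:46073375-46074023 in PRKCE, the gene of protein kinase C epsilon, reached 91.5 tags. In DLC1, another GTPase-activating protein, a peak at chr8:13366621-13367517 reached 90.5 tags.

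The longest member, 3504 bp at chr1:81800301-81803804 in the latrophilin gene ADGRL2, was broad rather than steep, reaching 50.2 tags of pileup at 2.68-fold over background. KLF12, ERC1, PALM2AKAP2 and DNM3 held the next 4, from 1926 to 2483 bp. The 5 members of highest fold were narrow, from 427 to 489 bp, and had folds of 11.2 to 12.03. They lay in NAV3 (chr12:77888552-77888995), GRM8 (chr7:126700992-126701463), ADGRL2 (chr1:81670273-81670699), PRKCE (chr2:45681614-45682079) and GALNTL6 (chr4:171880082-171880570). Their pileups, 37.2 to 48.1 tags, were below those of the 5 highest members. GRM8, which encodes a metabotropic glutamate receptor, held only 3 members in 814.3 kb, so a high fold and a low density occurred in the same gene.

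Density differed widely from gene to gene. The median long gene held 1.17 peaks per 100 kb (quartiles 0.219 and 2.77), the highest held 10.6 and 53 genes held none. The 31 genes with most peaks took 33.9% of the placements of peaks in genes. Of all members, 40 lay inside more than 1 long gene and were counted for each, and 87.4% lay inside no other annotated gene of any kind.

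The 10 densest genes were PRKCE, NAV2, PALM2AKAP2, LPP, FOXP1, PRKCA, ARHGAP24, DLC1, GSE1 and HIVEP3. PRKCE (chr2:45651279-46187990 in the RefSeq table, GRCh38.p14) held 57 peaks in 536.7 kb, or 10.6 per 100 kb (8.04 to 13.8). NAV2 (chr11:19345236-20121601), which encodes a cytoskeleton-associated navigator protein, held 72 in 776.4 kb, or 9.27 per 100 kb (7.26 to 11.7). PALM2AKAP2 (chr9:109640787-110172512), a locus that encodes paralemmin and kinase-anchoring proteins, held 49, or 9.22 per 100 kb (6.82 to 12.2). The intervals of these 3 genes overlapped, so their order is not resolved. The interval of PRKCE also overlapped those of HIVEP3 (5.24 to 10.1) and of STARD13 (5.13 to 9.70), the next gene after these 10. Which genes are the 10 densest is therefore not resolved either. LPP, which encodes a LIM-domain protein of focal adhesions, held 66 peaks, or 8.95 per 100 kb (6.92 to 11.4). FOXP1, a forkhead transcription factor gene, held 55, or 8.74 per 100 kb (6.58 to 11.4), and PRKCA, the gene of protein kinase C alpha, held 41, or 8.07 per 100 kb (5.79 to 10.9). The remaining 4 ran from 7.77 per 100 kb in ARHGAP24, whose product is a GTPase-activating protein, to 7.36 in HIVEP3, a zinc finger gene. Median pileups in these 10 genes ran from 16.8 tags in DLC1 to 26.4 in PALM2AKAP2, on median local backgrounds of 3.28 to 5.11 tags. Over all long genes with a peak the median of these backgrounds was 2.37 tags. Over the 261 long genes with a peak, the rank correlation of density with this background was 0.60 and with median pileup 0.50, a description over genes of 1 library. The peaks were called with no control, so this background comes from tags of the same library and is not independent of the peaks. The part of local tag level in the densities was not tested.

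Some dense extents contain other coding genes. RANBP2 held 76 peaks over 1123 kb, but 60 of them lay inside another protein-coding gene as well, and EDAR, SH3RF3 and SEPTIN10 lie wholly inside its extent. All 56 members of IQCJ-SCHIP1 lay in another coding gene. CAST, which encodes the protease inhibitor calpastatin, contains PCSK1 and held 52 peaks, of which 1 lay in another coding gene. Leaving out the 6 genes that shared over 50% of their peaks with another coding gene gave 1.53 peaks per 100 kb over all long genes.

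No member lay in 53 genes, and the longest 10 of these are named. RBFOX1 (chr16:5239721-7713340), which encodes a splicing factor of neurons and muscle, held 0 peaks in 2474 kb, which allows up to 0.149 per 100 kb. PTPRD (chr9:8314246-10613002), a receptor tyrosine phosphatase gene, held 0 in 2299 kb. DMD (chrX:31119222-33339388), the dystrophin gene, held 0 in 2220 kb. The other 7 were CSMD1, PCDH15, GPC5, CTNNA2, DPP10, TENM2 and CSMD3, of 1214 to 2060 kb. The 53 genes were 16.9% of all 314 long genes. Of them, 24 were among the 77 long genes of the neuronal lists described below. Another 2 were among the 27 long genes of the vascular list. The 53 genes covered 51.4 Mb in all. In 43 of them no peak at all lay wholly inside the gene, whatever its distance to other gene ends, while 12 of the 53 had a peak at an end of their own. An absent peak means that none was called at this depth, where the lowest pileup in the list was 8.0 tags, and loss of DNA copies in this line was not tested.

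Genes listed as neuronal were less dense than genes listed for vascular and adherent cells. The 27 long genes of a list of adhesion, cytoskeletal and signalling genes of such cells had a median of 2.77 peaks per 100 kb (quartiles 1.35 and 5.17). The 77 long genes of the neuronal lists, for adhesion and for the synapse, had a median of 0.312 (quartiles 0 and 1.19), so the medians differed 8.87-fold. The lists were written with earlier results of these data known, so the difference also depends on which genes were placed in them. Taken alone, the synapse list had quartiles of 0.164 and 1.67, which overlapped those of the vascular list. At least 2 times the median of all long genes, which is 2.33 per 100 kb, was reached by 18 of the 27 vascular genes (66.7%) and by 8 of the 77 neuronal genes (10.4%), against 32.2% of all 314. A density of no more than 0.5 times that median, 0.584 per 100 kb, was found for 2 of the 27 and 47 of the 77, against 36.9% of all. Neuronal genes were longer, with a median of 932.6 kb compared with 736.0 kb. Among genes of 500 kb to 1 Mb alone, the medians were 4.51 per 100 kb for 20 vascular genes and 0.622 for 47 neuronal genes, beside 1.54 for all 245.

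**Figure D2:**
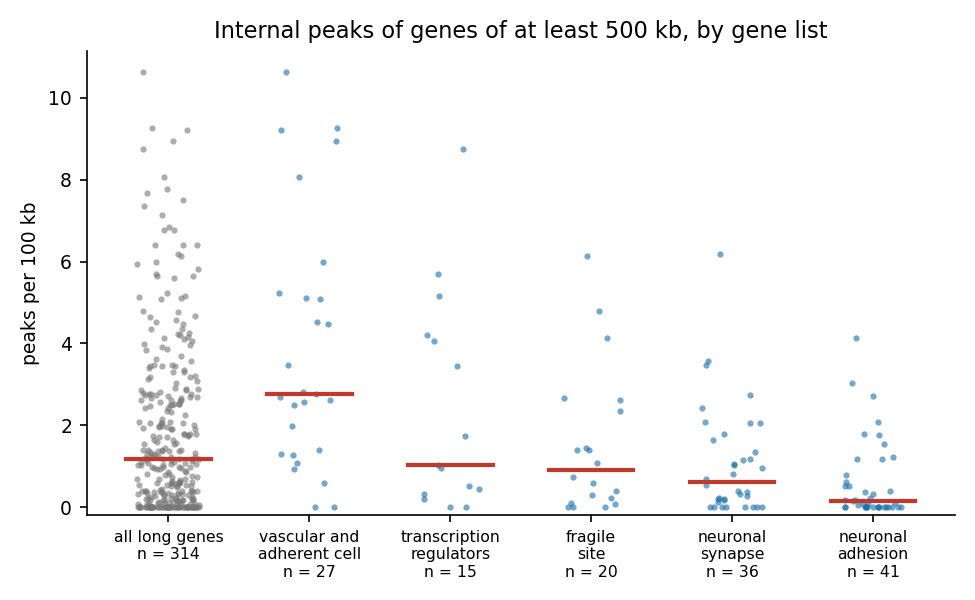
Peaks per 100 kb (vertical axis) in each gene of at least 500 kb, for all 314 genes and for 5 gene lists (horizontal axis); points are genes, spread sideways for view, and red bars are medians. The vascular and adherent cell list has the highest median, 2.77, and the neuronal adhesion list the lowest, 0.149.

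In the vascular list, besides the 5 genes among the 10 densest of all long genes, UTRN, which encodes the dystrophin relative utrophin, held 34 peaks (5.99 per 100 kb) and 14 of them fell in a single stretch of 50 kb, more than in any other long gene. PTPRM, a receptor tyrosine phosphatase of endothelium, held 44 peaks (5.24), the polarity gene PARD3 held 36 (5.10) and KCNMA1, the large-conductance calcium-activated potassium channel, held 39 (5.08). CDH13, which encodes T-cadherin, held 33 (2.81), and the junction scaffold MAGI1 held 19 (2.77). The lower genes included PRKG1, the cGMP-dependent kinase of vascular smooth muscle, with 17 (1.30), the basement membrane gene LAMA2 with 8 (1.26) and the guidance ligand SLIT3 with 6 (0.938). The Slit receptor ROBO1 and the glypican gene GPC5 held none.

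Among the 41 neuronal adhesion genes the median was 0.149 per 100 kb and 29 were at or under 0.584. SDK1, a sidekick adhesion gene, was the highest with 40 peaks (4.13 per 100 kb), followed by the teneurin gene TENM4 with 24 (3.04) and SORCS2 with 15 (2.73). CNTNAP2, one of the longest human genes, held 1 peak of 209 bp in 2304 kb, and OPCML and PTPRT also held 1 each. CTNNA2, DCC, CADM2, CDH18, CNTN4, CNTNAP5, DSCAM, LRRTM4, SORCS1 and UNC5D were among those that held none.

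The 36 synapse genes had a median of 0.621 per 100 kb. SYN3, a synapsin gene, stood first with 34 peaks (6.18 per 100 kb). The coding gene TIMP3, an inhibitor of matrix metalloproteinases, lies wholly inside SYN3, and 4 of the 34 peaks lay in another coding gene. SYT1, the calcium sensor of synaptic vesicles, held 21 peaks (3.57), KALRN 24 (3.46) and the calcium channel gene CACNA1C 20 (2.75). At the low end, the postsynaptic scaffold DLG2 held 5 peaks in 2173 kb, and FGF13 and GABRG3 held none.

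Of the 15 transcription regulators, FOXP1 (8.74 per 100 kb), GLIS3 (5.70), MECOM (5.17), ZBTB20 (4.20), RORA (4.05) and CAMTA1 (3.45) were above 2.33. With 6 of 15 (40%) above that level and 6 of 15 at or under 0.584, against 32.2% and 36.9% of all long genes, this list was near the background. MECOM encodes a zinc finger factor of blood stem cells and endothelium. SOX5 held 2 peaks in 1033 kb, and AUTS2 and FOXP2 held none. Genes at common fragile sites, which break under replication stress, had a median of 0.908 per 100 kb. Among these 20 genes, RAD51B held 53 peaks (6.14) and LRBA 36 (4.79), while FHIT held 6 in 1504 kb, MACROD2 2 in 2058 kb, WWOX 1 in 1113 kb, and DMD and THSD7B were among those with none. Across the 5 lists, 3 genes stood in more than 1.

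Related genes, grouped by family name after the values were known, differed by more than their counting intervals in some families. Of 16 families, 10 had at least 1 pair of genes whose intervals did not overlap. In the other 6, among them the MAGI scaffolds, glypicans, Slit receptors, alpha-catenins and SOX factors, all intervals overlapped. The share of pairs without overlap among all long genes was not computed, so this count does not set relatives apart from other genes. Among receptor tyrosine phosphatases, PTPRM, PTPRK and PTPRG held 5.24 (3.81 to 7.04), 4.53 (2.93 to 6.69) and 4.48 (3.09 to 6.30) peaks per 100 kb. PTPRN2 held 0.286 (0.0590 to 0.836), PTPRT 0.0864 (0.00219 to 0.481) and PTPRD 0 (up to 0.160). The first 3 overlapped one another, and each lay above the intervals of the other 3. The dystrophin relative UTRN held 5.99 (4.15 to 8.37) and DMD 0 (up to 0.166). The latrophilin ADGRL2 held 2.62 (1.55 to 4.14) and ADGRL3 0 (up to 0.420).

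Similar contrasts were seen between PARD3 at 5.10 (3.57 to 7.06) and PARD3B at 1.40 (0.781 to 2.30), and between ERC1 at 4.35 (2.72 to 6.58) and ERC2 at 0.312 (0.0644 to 0.913). ERC1 is used in many cell types and ERC2 at neuronal active zones. In the 500 kb on each side, ERC1 had 6.6 peaks per 100 kb, more than the gene itself, and ERC2 had 1.3. Of 4 cadherins, CDH13 held 2.81 (1.94 to 3.95), while CDH4, CDH12 and CDH18 held 0.291, 0.181 and 0. The teneurins ran from 3.04 (1.95 to 4.53) in TENM4 to 1.25 (0.731 to 2.01) in TENM3, 0.362 in TENM1 and 0 in TENM2. The intervals of TENM4 and TENM3 overlapped. All 5 long phosphodiesterase genes, which encode enzymes that break down cyclic nucleotides, held peaks. PDE10A had 5.60 (3.94 to 7.72), PDE4B 3.95 (2.505 to 5.93), PDE4D 3.48 (2.61 to 4.54), PDE1C 2.46 (1.51 to 3.81) and PDE1A 1.39 (0.599 to 2.73), and neighbours in this order overlapped.

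**Figure D3:**
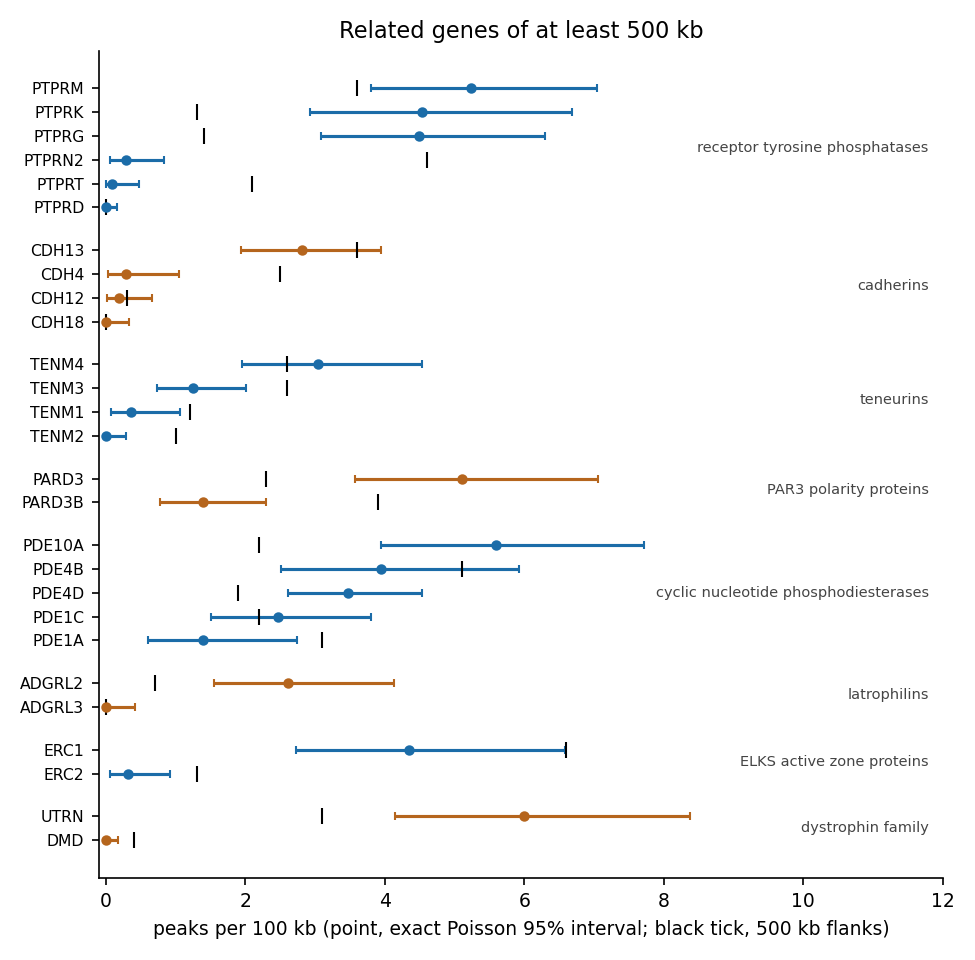
Peaks per 100 kb (horizontal axis) in genes of at least 500 kb from 8 families (vertical axis); points with bars are the gene and its exact Poisson 95% interval, and black ticks are the density in the 500 kb on each side. PTPRM, PTPRK, PTPRG, PARD3 and UTRN lie above both their flanks and their low relatives PTPRD, PARD3B and DMD. ERC1, CDH13 and PDE4B are among those below their flanks, and the flanks of PTPRD and DMD held 0 and 0.4 per 100 kb.

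The density of a gene went along with that of its surroundings. In the 500 kb on each side of a long gene, peaks over 1 kb from any gene end had a median density of 2.25 per 100 kb, and the Spearman rank correlation between gene and flanks over the 314 genes was 0.63, a description over genes that share 1 library. A density above that of the flanks was found in 91 genes (29%). It was found in 17 of the 27 vascular genes and in 12 of the 77 neuronal genes. NAV2 held 9.27 per 100 kb against 3.10 in its flanks, PTPRG 4.48 against 1.40, PTPRK 4.53 against 1.30 and DLC1 7.67 against 1.5. In the other direction, RBFOX3 held 2.43 against 8.60, SORCS2 2.73 against 8.50, LAMA2 1.26 against 5.80 and DLG2 0.230 against 5.0. For genes with no member the flanks were poor too, with a median of 0.200 per 100 kb. The flanks of PTPRD, PCDH15, CTNNA2, CADM2, CDH18 and NRG3 held no such peak.

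**Figure D4:**
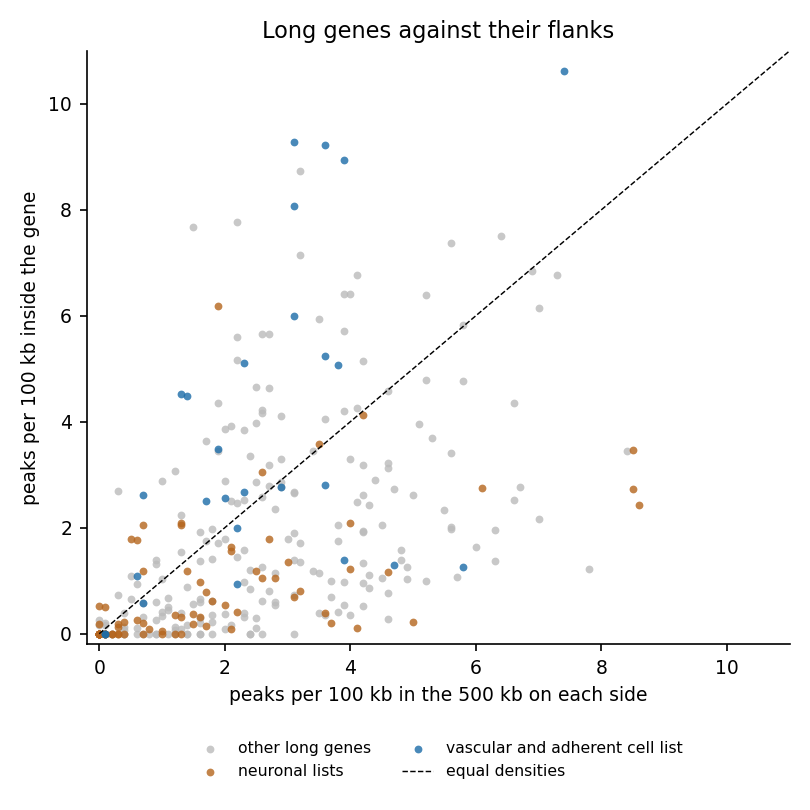
Peaks per 100 kb inside each of 314 long genes (vertical axis) against the 500 kb on each side (horizontal axis), with vascular genes in blue, neuronal genes in orange and a dashed line of equal densities. Most points, 223 of 314, lie on or under the line, and 17 of 27 vascular genes lie above it.

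Long genes also had fewer peaks at their ends, and those that had one were denser inside. An end peak was present in 173 of the 314 genes (55.1%, Wilson 95% interval 49.6% to 60.5%), against 73.1% of all protein-coding genes. In the lists the share was 21 of 27 vascular genes (77.8%), 12 of 15 transcription regulators (80.0%), 16 of 20 fragile-site genes (80%), 18 of 36 synapse genes (50%) and 12 of 41 neuronal adhesion genes (29.3%). The 173 genes with an end peak had a median internal density of 1.92 per 100 kb (quartiles 0.730 and 3.45), and the 141 without one had 0.408 (quartiles 0 and 1.72). The fragile-site genes, with end peaks in 80%, had a median internal density of only 0.908. Exceptions ran both ways. PALM2AKAP2 held 9.22 per 100 kb with no peak at either end, and DLC1, GSE1, SYN3 and PDE4D also lacked one. RBFOX1, PTPRD, GPC5, AUTS2, FOXP2, GRIK2 and FGF13 had an end peak and no member.

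Alternative starts inside the long genes were open in part. The promoter table matched 262 of the 314 genes, and 159 of these had 315 internal starts more than 1 kb from any gene end, where overlapping windows of a gene count as 1 start. A peak overlapped 87 of the 315 (27.6%, Wilson 95% interval 22.97% to 32.8%), in 59 genes, against 42.7% of 3555 internal starts in shorter protein-coding genes (41.1% to 44.4%). At the outermost start of the gene the shares were 55.0% for long genes (48.2% to 61.6%) and 69.5% for shorter genes (68.8% to 70.2%). So the share was lower in long genes at both kinds of start, with no overlap of intervals. Starts of the same gene can share a peak and are not independent, so these intervals may be too narrow. Only 75 members, 1.82% of all, were found at an internal start. Genes without a match in the promoter table had no starts to compare, so this share is a lower bound. The median length of these 75 members was 683 bp, against 386 bp for the other 4050, and their median pileup 25.5 tags, against 17.6.

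ADGRL2 had peaks at all 6 of its internal starts, and 5 of these lay under its single peak of 3504 bp. ZBTB20, a zinc finger repressor gene, had peaks at 5 of 7, and SCHIP1 at 4 of 5. MECOM had peaks at both of its internal starts, 516.0 and 516.9 kb into the gene, with pileups of 44.7 and 38.8 tags. FOXP1 had peaks at 2 of 4 and PDE4D at 2 of 7, with pileups of 37.0 and 24.6 tags in FOXP1 and 28.2 and 10.4 tags in PDE4D. PTPRM had a peak of 239 bp with 21.03 tags at its only internal start. In TENM3 a peak of 1179 bp with 44.0 tags lay at a start 1001 kb into the gene. None of 5 internal starts of DMD, 5 of RBFOX1, 5 of DLG2, 4 of NTM or 4 of SOX6 had a peak.

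Open and closed starts were not separated by CG content among the windows shown above, but differed in it over the whole set. At least 10 CG dinucleotides in 300 bases were present in 43 of the 87 open internal starts of long genes (49.4%) and in 52 of the 228 closed ones (22.8%). Among outermost starts of long genes the shares were 95.7% for 115 open and 68.1% for 94 closed starts, and among internal starts of shorter genes 71.0% for 1519 open and 22.8% for 2036 closed starts. Over all 35116 windows of the table the share was 56.4%. The AP-1 motif TGANTCA, searched on both strands, was present in 13 of the 87 open (14.9%) and 26 of the 228 closed internal starts (11.4%), and in 7.71% of all windows. For GGAATG, the TEAD motif, these shares were 18.4%, 18.0% and 14.03%. For CACGTG, the E-box, they were 3.45%, 3.51% and 7.26%, and for the core of the CTCF motif 1.15%, 1.75% and 2.41%. No motif of the 4 contains another. A match is a description of the letters only.

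Peaks were not spread evenly along the long genes. Neighbouring members of a gene lay a median of 12.2 kb apart (quartiles 4.06 and 33.8 kb), and 15.0% of gaps were under 2 kb. These gaps are pooled over genes, so genes with many peaks weigh most. The longest stretch without a member had a median of 310.7 kb over all 314 genes. For the 53 genes with no member this stretch is the whole gene, so this median and that of the gaps cover unlike sets of genes. The 262 genes with known strand were each divided into 10 equal stretches from the 5′ end. The last stretch held 495 of 3596 peak placements (13.8%, 2.26 per 100 kb) and the third held 276 (7.68%, 1.26 per 100 kb). The first held 343 (9.54%). Weighting equally the 168 genes with at least 5 members, the last stretch took 17.9% and the first 9.29%. Across the stretches, median pileup ran from 16.2 tags in the first to 19.2 in the ninth.

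**Figure D5:**
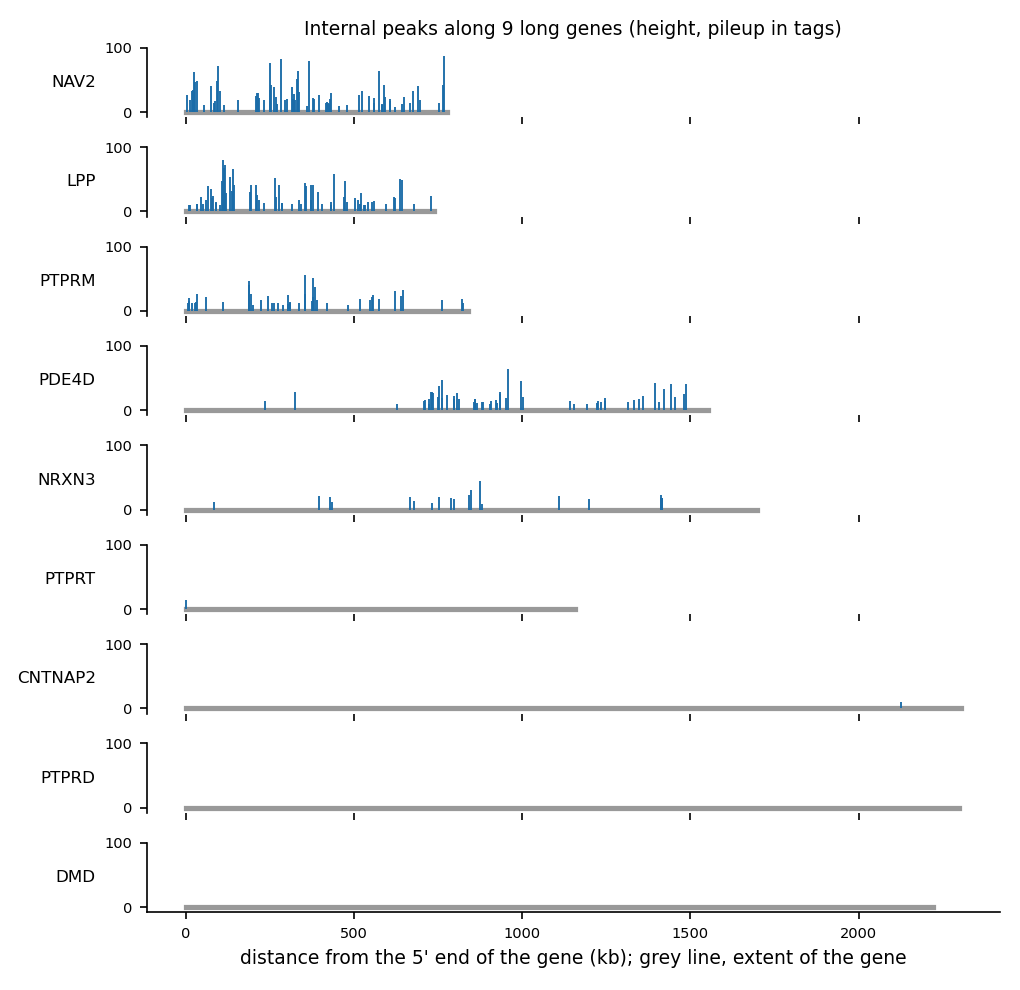
Member peaks along 9 long genes, by distance from the 5′ end of the gene in kb (horizontal axis) and pileup in tags (height of the blue lines, axis 0 to 100); the grey line is the extent of the gene. NAV2 and LPP hold peaks along their whole length, PDE4D mostly beyond 500 kb, CNTNAP2 and PTPRT a single peak each, and PTPRD and DMD none.

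In NAV2 the 72 members ran from 4.59 to 767.2 kb from the 5′ end, and the longest stretch without one was 54.9 kb. In LPP that stretch was 49.8 kb. PDE4D held 2 members in its first 500 kb and 52 beyond, with its first at 234.8 kb. PTPRM was the other way round, with 33 in the first 500 kb and 11 beyond. NRXN3, a neurexin gene, held 4 and 16. In PTPRT the only member lay 1.89 kb from the 5′ end, which left 1156 kb without a peak. In CNTNAP2 it lay 2126 kb from the 5′ end. DLG2 held 4 of its 5 peaks within 50 kb, and 1754 kb of the gene held none.

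Member density ran from 0.675 per 100 kb on chromosome 20 (0.486 to 0.912) to 2.78 on chromosome 17 (2.33 to 3.30), apart from chromosome 21, where the 2 long genes, DSCAM and NCAM2, held none. On chromosome X 92 members in 11 genes gave 0.869 per 100 kb (0.700 to 1.07). Median pileup by chromosome ran from 15.4 tags on chromosome 12 to 21.04 on chromosome 9, where the median local background was also the highest, at 3.115 tags.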

How the data were processed

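Chromatin accessibility was measured by ATAC-seq in 1 library of hCMEC/D3 cells. Per the file headers, the authors called broad peaks with MACS 2.2.7.1 on this library with no control, in single-end mode, with a shift of -100 and an extension of 200 bp, q limits of 0.05 and 0.1, and an effective genome size of 1870000000 bp. The headers give 22188172 tags after filtering. The deposited list gives for each peak its length, its pileup signal in tags, its fold enrichment over local background (a ratio), and a −log10 p-value and −log10 q-value. Bowtie2, SAMtools 1.13, Picard and MACS2, and the builds GRCh38 and mm10, are named without roles in the submitters' processing notes. The effective genome size in the header is the mouse setting, although the cells are human. This setting enters the background floor of the caller, 2.37 tags, and so the fold of weak peaks. Its effect on which weak peaks were called was not tested.

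Gene extents, biotypes and start windows came from RefSeq (GRCh38.p14), with 19970 protein-coding genes. The fit of the coordinates was checked: peaks overlapped 69.5% of the outermost starts of protein-coding genes under 500 kb, and 6.00% after all peaks were moved by 10 kb. Density is the number of member peaks divided by the whole gene extent, and pooled density uses the union of extents. Local background was computed as (pileup + 1)/fold − 1. Poisson intervals are exact and shares have Wilson intervals, both at 95%. The placement code was tested on simulated data. Python 3.11, numpy 2.4.6, pandas 2.3.3 and scipy 1.17.1 were used.

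The members, the 5 gene lists (206 symbols) and the families were chosen with earlier results of these data known. Genes were named by a rule: the 10 densest and 10 sparsest (ties by longer gene first), the 2 highest and 2 lowest of each list, the 3 longest, the holders of the 5 highest, 5 longest and 5 highest-fold peaks, and the 5 with the longest stretch without a peak. Other genes were named from the lists and families after their values were seen. Alternatives changed the peak filter, the distance to ends, the gene length limit and the denominator. Exon or intron position and the sequence of the peaks were not analysed here, because only start windows were used. The 2 RNA libraries were not used here. Values of some genes that the rule or the lists name are not reported here.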

Additional observations from a re-analysis of the deposited data

How the results depend on the processing

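The 8.87-fold difference in median density between the vascular and neuronal lists ran from 7.25 to 11.7 over the alternatives in peaks per 100 kb that gave a value, and was 13.2 for the share of bases covered by peaks. It had no value for peaks with a pileup of at least 20 tags, where the neuronal median was 0. Every alternative used the same lists. Requiring a −log10 q of at least 5 gave a pooled density of 1.06 per 100 kb, a median of 0.747, a median length of 471 bp, a median pileup of 22.6 tags, an end peak in 43.0% of long genes (66.9% of all coding genes) and a peak at 21.9% of internal starts. Requiring a fold of at least 4 left 2635 members, with 1.01 per 100 kb, a median of 0.765, 462 bp, 21.01 tags, 37.9% (56.2% of all) and 16.8%. The pooled ratio to genes of 100 to 200 kb was then 0.371 (0.354 as reported), and 6 of the 10 densest genes were again among the 10 densest. A pileup of at least 20 tags left 1732 members, with 0.663 per 100 kb, a median of 0.329, 553.5 bp, 29.4 tags, 17.8% of internal starts and a ratio of 0.296. These filters keep fewer and stronger peaks by construction.

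Genes of at least 400 kb held 6290 members, with 1.87 per 100 kb, a median of 1.40 and a ratio of 0.419. Genes of at least 1 Mb held 679, with 0.709 per 100 kb, a median of 0.230, a length of 371 bp, a ratio of 0.159, a neuronal median of 0.111 and a vascular median of 1.30. Counting only ends of protein-coding genes gave 1.66 per 100 kb, a distance of 2.5 kb gave 1.504, bases over 1 kb from any end gave 1.63, and leaving out the 6 genes that share over 50% of their peaks gave 1.53. This last choice, the ratio of the lists, the overlap of the 10 densest and the filters on internal starts were added after seeing the data. As the share of bases covered by peaks, the medians were 0.491% for all long genes, 1.40% for the vascular and 0.106% for the neuronal lists. A second ATAC library was not analysed here, so variation between cultures is not measured, and copy number of the line was not tested. No paired analysis was possible because the ATAC and RNA groups share only 1 replicate number.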
